A study of Mus musculus with 16 samples.

Results

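The 16 libraries of single LSK cells fell into separate ranges for the mRNAs of Nfkbiz and Tfrc, and the values below compare the 8 libraries where both were high with the 8 where both were low. LSK libraries 1 to 8 are those titled AB7091 to AB7098, LSK libraries 9 and 10 are AB7099 and AB7100, and LSK libraries 11 to 16 are AB7147 to AB7152. The sets of libraries were chosen by measured values, above all the level of Nfkbiz, so every difference between the sets is given as a description, with no test. All kept cells of a library were summed. This gave 2582 cells in libraries 9 to 16 and 2575 in libraries 1 to 8, out of 5157 in all, with 295 to 345 per library.

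LSK cells are Lin–Sca1+Kit+ bone marrow cells, the fraction that holds blood stem cells and the earliest progenitors. The hosts, CD45.1/CD45.2 mice after lethal irradiation, had been given fetal liver cells of CD45.1 controls and of CD45.2 Regnase-1–/–Regnase-3–/– donors at 1:1, per the labels. Sorting into wells, 1 cell each, followed after 4 weeks, and the strain is given as C57BL/6J. Messenger RNA 3′ ends were read by MARS-seq, a plate method that tags each captured molecule with a unique molecular identifier (UMI). All 16 libraries carry the same group label, and no library or well has a genotype or a mouse named, so none is assigned here. Every library shares the irradiated host, the mixed graft and the time after transplantation. Cells that grew from fetal liver in an irradiated host need not behave like those of an undisturbed marrow.

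Regnase-1, encoded by Zc3h12a, and Regnase-3, encoded by Zc3h12c, are endoribonucleases that destroy mRNAs of inflammatory genes. Regnase-1 recognises short stem-loops in 3′ untranslated regions (3′ UTRs), often with a pyrimidine-purine-pyrimidine loop. Nfkbiz encodes IκBζ, a nuclear cofactor of NF-κB, and Tfrc encodes the transferrin receptor, which brings iron into cells. Both mRNAs have been described as Regnase-1 targets in other cells. The Tfrc 3′ UTR is also known for iron-responsive elements, hairpins with a CAGTGN loop that iron regulatory proteins bind when iron is scarce.

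Stem-loop sequences of the 2 mRNAs are shown because the choice of libraries rests on these genes. They were read from the 3′ UTRs of the GENCODE M21 annotation on GRCm38, of which mm10 is the same assembly, and are written 5′ to 3′ on the transcript strand with the loop in capitals. Tfrc lies on the plus strand of chromosome 16, from 32608920 to 32632794. Its 3′ UTR, 2458 bases long in transcript ENSMUST00000023486.14, holds 4 matches to a C, a 5-base stem and a CAGTGN loop, and 1 match to a 6-base stem around a 3-base pyrimidine-purine-pyrimidine loop.
Tfrc CAGTGN loop, chr16:32631225-32631241: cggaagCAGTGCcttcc
Tfrc CAGTGN loop, chr16:32631604-32631620: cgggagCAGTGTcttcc
Tfrc CAGTGN loop, chr16:32631669-32631685: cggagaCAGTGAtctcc
Tfrc CAGTGN loop, chr16:32631716-32631732: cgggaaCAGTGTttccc
Tfrc 3-base loop, chr16:32631250-32631264: gacagtTATactgtc
Nfkbiz lies on the minus strand of chromosome 16, from 55811375 to 55838899, and its 3′ UTR of 1355 bases in transcript ENSMUST00000114458.7 holds 2 matches to the second pattern.
Nfkbiz 3-base loop, chr16:55812614-55812628: tgtttcTATgaaaca
Nfkbiz 3-base loop, chr16:55812586-55812600: cactatTATatagtg
Of 20971 annotated mouse 3′ UTRs, 120 (0.572%) hold the CAGTGN pattern and 1762 (8.4%) hold the 3-base loop pattern. Only the transcript strand was searched. A match is a description of the sequence and was not tested as a binding site.

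The 2 sets were similar in depth. Kept cells gave 500092 to 775291 UMIs per library in libraries 1 to 8 and 524065 to 810096 in libraries 9 to 16. The median number of genes per cell lay between 619 and 970.5 in the first set and between 732.5 and 1071 in the second. Mitochondrial transcripts took 9.45% to 11.9% of UMIs in the first and 9.43% to 12.1% in the second. The LSK markers Kit and Ly6a (which encodes Sca1) were present in every library, with Kit at 136 to 210.2 CPM (a gene's UMIs divided by the library's total and scaled to 1000000) in libraries 1 to 8 and 128.5 to 204.9 CPM in libraries 9 to 16. Libraries 2 to 10 belong to sequencing batch SB341 and libraries 11 to 16 to batch SB343, and no batch is given for library 1. Only SB341 therefore holds libraries of both sets, 7 from the first and 2 from the second. The 60 wells listed as empty held no UMI of Nfkbiz or Tfrc and a median of 13 UMIs of any gene. No well name was shared between libraries.

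Nfkbiz was nearly absent from libraries 1 to 8 and present in every one of libraries 9 to 16. Libraries 1 to 8 held 4, 3, 4, 1, 3, 0, 0 and 2 UMIs of Nfkbiz, and libraries 9 to 16 held 27, 30, 36, 28, 23, 19, 14 and 12. In library 6 a count of 0 allows up to 4.72 CPM and in library 7 up to 4.17 CPM, taking 3 UMIs as the limit. The highest value among libraries 1 to 8 was 6 CPM and the lowest among libraries 9 to 16 was 19.0 CPM, which are the values on each side of the gap that the choice of libraries used. The means were 3.21 ± 2.42 CPM (SD, n = 8) and 36.6 ± 10.5 CPM (SD, n = 8), a ratio of 11.4. Within SB341 alone the ratio was 15.9.

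The same UMIs can be counted per cell, which adds no independent support for the gap. A UMI of Nfkbiz was found in 17 of 2575 cells of libraries 1 to 8, or 0.66% (95% Wilson interval 0.413% to 1.05%, which like the other intervals here covers counting error only). In libraries 9 to 16 it was found in 152 of 2582 cells, or 5.89% (5.04% to 6.86%). The share ran from 0% to 1.21% over the first set and from 3.73% to 7.92% over the second, with no overlap. No cell of libraries 1 to 8 held more than 1 UMI of it, and the highest count in a cell of libraries 9 to 16 was 4. With each cell thinned to 500 UMIs the pooled shares were 0.117% and 1.86%. The shares per library then overlapped, with 0% in library 16 and 0.321% in library 8. In sums over a library, fewer cells with a transcript and less of it per cell cannot be told apart.

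Tfrc was detectable everywhere and higher in every one of libraries 9 to 16. Libraries 1 to 8 gave 35.2, 28.0, 39.98, 31.9, 27.0, 26.8, 33.3 and 26.3 CPM. Libraries 9 to 16 gave 92.2, 116.1, 113.5, 75.3, 110.5, 71.0, 82.1 and 105.9 CPM. The sets did not overlap, the lowest library of the second set (14) lying above the highest of the first (3). Mean Tfrc was 31.1 ± 4.92 CPM (SD, n = 8) against 95.8 ± 18.1 CPM (SD, n = 8), a ratio of 3.09, and 3.42 within SB341. Cells with a Tfrc UMI made up 4.58% (3.84% to 5.46%) of the first set and 11.9% (10.7% to 13.2%) of the second. A single cell reached 25 UMIs of Tfrc in library 11, against at most 5 in any cell of libraries 1 to 8. Both mRNAs were seen in the same cell in 39 cells over all libraries.

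**Figure D1:**
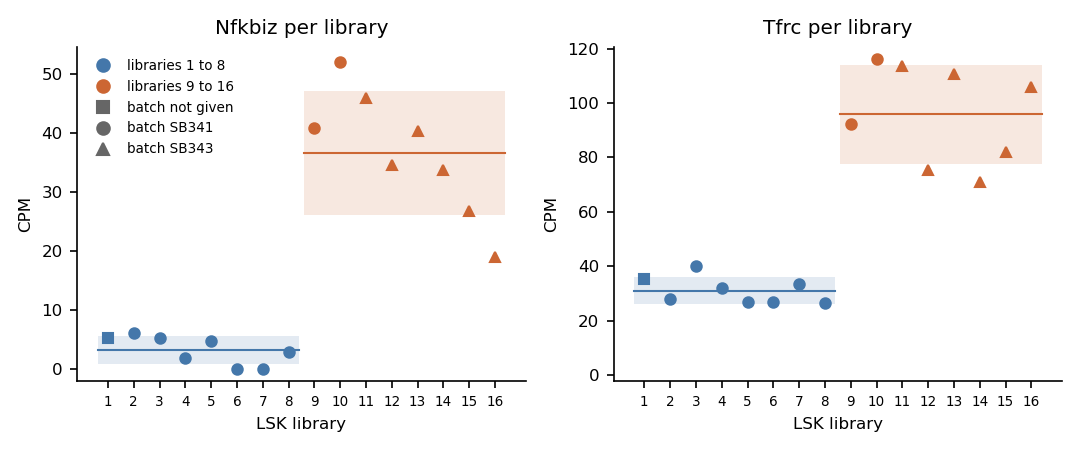
Level of Nfkbiz and of Tfrc (CPM of the summed kept cells, vertical axis) in each of the 16 LSK libraries, with marker shape for the sequencing batch, a line at each set's mean and a band of 1 SD. For both genes all of libraries 9 to 16 lie above all of libraries 1 to 8, at 19.0 CPM or more against 6 CPM or less for Nfkbiz.

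The Regnase genes themselves were counted at low levels. Zc3h12a gave 1.57 to 10.4 CPM in libraries 1 to 8 (29 UMIs in all) and 7.63 to 17.4 CPM in libraries 9 to 16 (64 UMIs), with overlap. Zc3h12c gave 4.0 to 15.5 CPM (46 UMIs) and 2.55 to 12.1 CPM (31 UMIs), also with overlap. Tags from the 3′ end can lie outside the deleted part of a gene, so these values check no genotype.

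Across the genome most genes overlapped between the sets. Among 8734 autosomal genes with a mean of at least 10 CPM, 68 (0.779%) were higher in all of libraries 9 to 16 than in all of libraries 1 to 8, and 53 (0.607%) were lower. These shares are the background for every count of genes lying apart below. Since the libraries were chosen on this contrast, nothing is read from them. With TMM or DESeq2 scaling in place of CPM the split was 52 higher and 64 lower, and the median log2 ratio over all tested genes moved from 0.073 to 0.005 (TMM) or 0.007 (DESeq2). X- and Y-linked genes were left out. Of the 8734 tested genes 5280 had a ratio of means above 1, which is the background for list counts of ratios above or below 1. Of the 121 genes, 44 had a ratio of means above 2 and 36 a ratio below 0.5. The weakest were Cox5a, a subunit of cytochrome c oxidase, at a ratio of 1.18, and Cox7a2l at 0.738.

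Libraries 9 and 10 alone set against the 7 other SB341 libraries gave 473 higher (5.42%) and 351 lower genes (4.03%) of 8720. These libraries are among the 8 against 8, so the 121 genes lie apart there by construction and the comparison is no independent support. Inside the second set, libraries 9 and 10 differed from libraries 11 to 16 in many genes: 744 (8.52%) were higher and 990 (11.3%) lower in libraries 9 and 10 without overlap. Of the 68 genes higher in libraries 9 to 16, 2 were higher and 18 lower in libraries 9 and 10 than in libraries 11 to 16. Of the 53 lower genes, 22 were higher and 3 lower there. Nfkbiz and Tfrc overlapped between these batches, at 46.4 and 33.4 CPM on average for Nfkbiz. Batch and any other difference between libraries 9 and 10 and libraries 11 to 16 cannot be told apart.

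**Figure D2:**
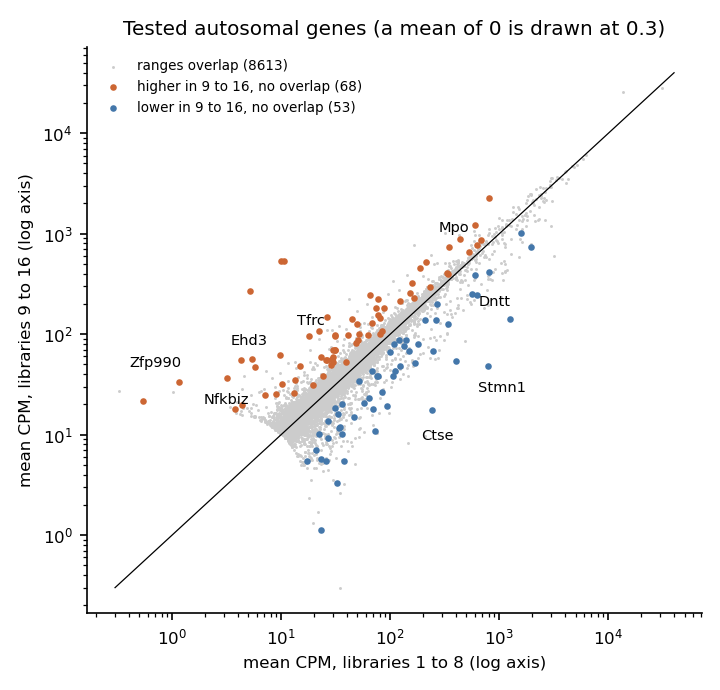
Mean level of each of 8734 tested genes in libraries 1 to 8 (horizontal) and libraries 9 to 16 (vertical), in CPM on log axes, with a mean of 0 drawn at 0.3; coloured points are the genes whose ranges do not overlap. The 68 higher and 53 lower genes lie on both sides of a narrow band of 8613 overlapping genes.

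Other mRNAs described as Regnase targets in other cells were mostly at low levels here. The list of 29 held 11 tested genes, of which 2 (Nfkbiz and Tfrc) were higher without overlap and 0 lower. A ratio above 1 was seen in 8 of the 11, Nfkbiz and Tfrc among them, beside 5280 of 8734 over all tested genes. The median ratio was 1.46, beside 1.05 over all tested genes. Nfkbid, which encodes another nuclear IκB protein, ran from 0 to 14.2 CPM in libraries 1 to 8 and from 10.4 to 42.0 CPM in libraries 9 to 16. Those ranges overlapped, as did those of Bcl3, also of that group, at 4.72 to 17.7 and 10.6 to 33.7 CPM. Rel, an NF-κB subunit, had a ratio of 1.46, also with overlap, while Nfkbia, the classical NF-κB inhibitor, had a ratio of 0.778 and Il1b one of 0.521. Gata2 and Tal1, transcription factors of early blood cells, were near 1 at 1.07 and 1.01. Il12b, Ptgs2, Ctla4, Cxcl1, Cxcl3 and Ifng had no UMI in any library, so nothing can be read about them at this depth. The list's summed level was 311.6 to 423.6 CPM in the first set and 447.3 to 563.1 CPM in the second, without overlap, with Nfkbiz and Tfrc included in it. These 2 genes chose the libraries. The gap in the sum, the 8 of 11 and the median are therefore no result about the other members.

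Of 19 tested NF-κB genes 1 was higher (Nfkbiz) and 1 lower, with a median ratio of 1.03 and overlapping sums. The lower gene was Sqstm1, which encodes the autophagy receptor p62. It ran from 89.98 to 114.8 CPM (median 99.1) in libraries 1 to 8 and from 49.7 to 80.2 CPM (median 67.5) in libraries 9 to 16. Its ratio of means was 0.66. None of the 18 tested cytokine receptor and signalling genes, the 23 interferon response genes or the 18 MHC class I genes lay apart, and their median ratios were 0.958, 0.927 and 1.05. The 8 tested genes for Regnase family and related RNA-decay proteins all overlapped, with a median ratio of 1.16.

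Genes of iron uptake, iron storage and heme synthesis had a higher summed level in libraries 9 to 16. Of 20 tested, 2 lay apart, both higher, 15 had a ratio above 1 and the median was 1.33. Beside Tfrc the other was Alas1, the first enzyme of heme synthesis in most cells, at 12.4 to 37.8 CPM (median 31.3) against 41.6 to 75.3 CPM (median 56.4). Its ratio of means was 1.92. The ferritin chains Fth1 and Ftl1, which store iron, overlapped between the sets with ratios of 1.08 and 1.31. Ncoa4, the receptor that sends ferritin to degradation, had a ratio of 0.582, Slc11a2, an iron transporter, one of 1.83, and the iron regulatory protein genes Aco1 and Ireb2 0.95 and 0.995, all with overlap. The summed level was 2274 to 2456 CPM in the first set and 2657 to 3073 CPM in the second, without overlap and with Tfrc included.

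Granule and surface genes of neutrophils and monocytes had a higher summed level in libraries 9 to 16, at 3681 to 4392 CPM in the first set and 4698 to 6164 CPM in the second. Of 20 tested, 3 lay apart, all higher, 18 had a ratio above 1 and the median ratio was 1.75. Mpo, the myeloperoxidase of the azurophil granule, ran from 217.6 to 536.9 CPM (median 348.9) and from 545.7 to 1028 CPM (median 671.3). Those ranges nearly touch, and the ratio of means was 2.11. Elane, neutrophil elastase, ran from 11.6 to 38.8 CPM (median 23.1) and from 43.8 to 219.4 CPM (median 102.6), a ratio of 4.83 over 8 libraries and 2.47 within SB341. Ctsg, the granule protease cathepsin G, ran from 36.5 to 140.8 CPM (median 82.7) and from 154.3 to 363.6 CPM (median 212.9), a ratio of 2.89. Elane differed inside the second set too, the 2 SB341 libraries lying below all 6 of SB343.

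The share of cells with such transcripts was also higher. It counts UMIs of Mpo, Elane and Ctsg again, so it adds no independent support. After thinning to 500 UMIs, cells with at least 2 UMIs of Mpo, Elane, Prtn3, Ctsg, Ms4a3 or Ly6c2 made up 1.59% to 6.57% of the first set and 7.4% to 18.6% of the second. The means were 4.06% ± 1.72 and 12.5% ± 3.62 (SD, n = 8 each), without overlap. Within SB341 alone the means were 3.7% and 8.47%. Inside the second set, libraries 9 and 10 (9.55% and 7.4%) lay below all of libraries 11 to 16, so the gap was not uniform over libraries 9 to 16. For Dntt, Ighm, Il12a, Notch1 and Flt3, the lymphoid gate, the shares were 7.99% to 14.9% and 4.49% to 8.81%, which overlap. For the megakaryocyte-erythroid gate (Car1, Gata1, Klf1, Pf4, Apoe and Itga2b, the second of which is X-linked) they were 0.635% to 2.75% and 2.69% to 7.77%, and for the stem gate (Mecom, Hlf, Procr, Pdzk1ip1 and Fgd5) 0.639% to 3.49% and 0.299% to 3.21%, both with overlap. Without thinning, the granule shares were 16.2% to 29.9% and 30.2% to 52.8%, with library 15 (32.8%) below library 9 (33.4%). The megakaryocyte-erythroid overlap depended on these settings: without thinning its shares were 4.76% to 9.94% and 10.7% to 16.6%, and in thinned cells with at least 1 UMI 5.45% to 8.65% and 10.7% to 18.6%, both without overlap. The part of these shares in the other differences between the sets was tested for no gene, but values in cells outside a gate are given below.

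Early lymphoid and antigen-presentation genes had lower summed levels in libraries 9 to 16. The early lymphoid sum was 2054 to 2632 CPM in the first set and 1637 to 2006 CPM in the second, without overlap. Among 14 tested early lymphoid genes 1 lay apart, lower, 10 had a ratio below 1 and the median was 0.833. That gene was Dntt, the terminal transferase of early lymphocytes, at 439.2 to 741.7 CPM (median 558.0) against 162.0 to 334.9 CPM (median 234.0). Its ratio of means was 0.451. The early lymphoid sum includes Dntt, at means of 559.2 and 252.3 CPM, and the sum without it was not taken. All 8 tested antigen-presenting and dendritic cell genes had a ratio below 1 (median 0.601) and 4 lay apart, all lower: Cd74, H2-Aa, H2-Ab1 and H2-Eb1, the MHC class II chains and their invariant chain. The list's sum was 759.9 to 1020 CPM against 408.9 to 631.6 CPM.

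Cd74, the invariant chain, ran from 95.6 to 155.6 CPM (median 121.3) and from 34.7 to 67.9 CPM (median 47.8), a ratio of 0.39. H2-Aa ran from 118.6 to 223.1 CPM (median 147.5) and from 46.8 to 99.2 CPM (median 64.2), a ratio of 0.457. The libraries of each set stayed on their own side for both genes. H2-Eb1 ran from 61.1 to 110.8 CPM (median 69.5) and from 25.3 to 48.1 CPM (median 39.1), a ratio of 0.496. H2-Ab1 ran from 98.0 to 174.6 CPM (median 132.6) and from 62.0 to 95.1 CPM (median 77.0), the narrowest gap of the 4, with a ratio of 0.562. Cd74 and H2-Ab1 were also lower in libraries 9 and 10 than in libraries 11 to 16.

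Of the 17 tested stem cell genes and 17 tested megakaryocyte and erythroid genes none lay apart. The stem cell genes had a median ratio of 0.813, with 14 of 17 below 1, and the megakaryocyte and erythroid genes 1.44, with 16 of 17 above 1. None of 27 G2 to M phase genes lay apart, though all 27 had a ratio above 1 (median 1.25). In the same way 23 of 24 genes for ER chaperones and secretion had a ratio above 1 (median 1.22) with overlapping sums. For both lists the sums in libraries 9 and 10 lay inside the first set's range. G2 to M phase genes summed to 3885 and 4020 CPM there, against 2799 to 4328 CPM in libraries 1 to 8. In libraries 11 to 16 they summed to 4440 to 5214 CPM. ER genes summed to 4077 and 4120 CPM in libraries 9 and 10, against 3175 to 4142 CPM in libraries 1 to 8. In libraries 11 to 16 that sum was 4486 to 4955 CPM. G1 to S phase genes had a median ratio of 1.06 and glycolysis genes one of 0.988. For immediate early and chaperone genes the median ratio was 0.968 while the ratio of their sums was 1.24. These summed to 3953 and 3562 CPM in libraries 9 and 10 and to 4499 to 4998 CPM in libraries 11 to 16. Libraries 1 to 8 gave 2957 to 4140 CPM. Of 10 mast cell and basophil genes 1 was tested and overlapped.

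Markers of cell types that the LSK gate should leave out were low in both sets. Their sums overlapped: mature neutrophil and macrophage genes at 25.2 to 159.9 and 19.0 to 54.4 CPM, mature B cell genes at 23.2 to 44.3 and 25.3 to 57.9 CPM, and T and NK cell genes at 26.8 to 47.8 and 15.3 to 42.1 CPM. Erythroid and platelet genes summed to 107 to 384.8 and 122.5 to 237.3 CPM, and endothelial and stromal genes to 47.2 to 170 and 32.4 to 107.4 CPM. Each of these 5 lists had 1 or 2 tested genes, and 0 of them lay apart. Ltf, Mmp9, Cd79a, Iglc1, Iglc2, Cd3e, Cd3d, Cd8b1, Cdh5 and Lepr had no UMI in any library.

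Further genes with a symbol lay apart in the 8 against 8 and so, by construction, in SB341. Ehd3, which encodes a membrane-trafficking protein of recycling endosomes, ran from 0 to 15.2 CPM (median 2.57) and from 46.2 to 66.4 CPM (median 54.6). The ratio of its means was 12.9, and 20.4 without library 8, the highest of the first set. Ebi3, a subunit shared by interleukins 27 and 35, ran from 31.8 to 62.4 CPM (median 43.5) and from 110.3 to 169.8 CPM (median 142.4), a ratio of 3.15. Selp encodes P-selectin, the adhesion molecule of platelets and endothelium. It ran from 8.0 to 20.7 CPM (median 15.4) and from 34.8 to 65.1 CPM (median 45.1), a ratio of 3.24. Tnfaip2, a gene induced by tumour necrosis factor, ran from 2 to 12.5 CPM (median 6.48) and from 13.6 to 43.3 CPM (median 23.1), with a narrow gap and a ratio of 3.54.

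Among the lower genes Ctse, the aspartic protease cathepsin E, ran from 197.3 to 274.3 CPM (median 245.2) in libraries 1 to 8 and from 8.77 to 42.1 CPM (median 12.5) in libraries 9 to 16. Its means were 240.2 ± 25.4 and 17.5 ± 11.8 CPM (SD, n = 8 each), 13.7 times lower in the second set. Wdfy1 encodes an adaptor protein of Toll-like receptor signalling. It ran from 16.7 to 53.5 CPM (median 43.3) and from 0 to 14.2 CPM (median 5.35), and Emp1, an epithelial membrane protein, from 9.70 to 41.3 CPM (median 26.0) and from 1.23 to 7.90 CPM (median 6.17). Bet1l, a SNARE of the Golgi, ran from 139.9 to 247.6 CPM (median 160.0) and from 21.0 to 108.8 CPM (median 50.3), with the 2 SB341 libraries of the second set above all 6 of SB343. Of these 4 genes Ctse had the lowest ratio of means, 0.0728, and Bet1l the highest, 0.304. Outside the rule for named genes, and picked after their values were seen, Ccl9, a chemokine, was higher at 58.0 to 99.2 against 131.7 to 227.1 CPM, and Itgam, the integrin chain CD11b, at 5.56 to 18.1 against 19.1 to 45.8 CPM.

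**Figure D3:**
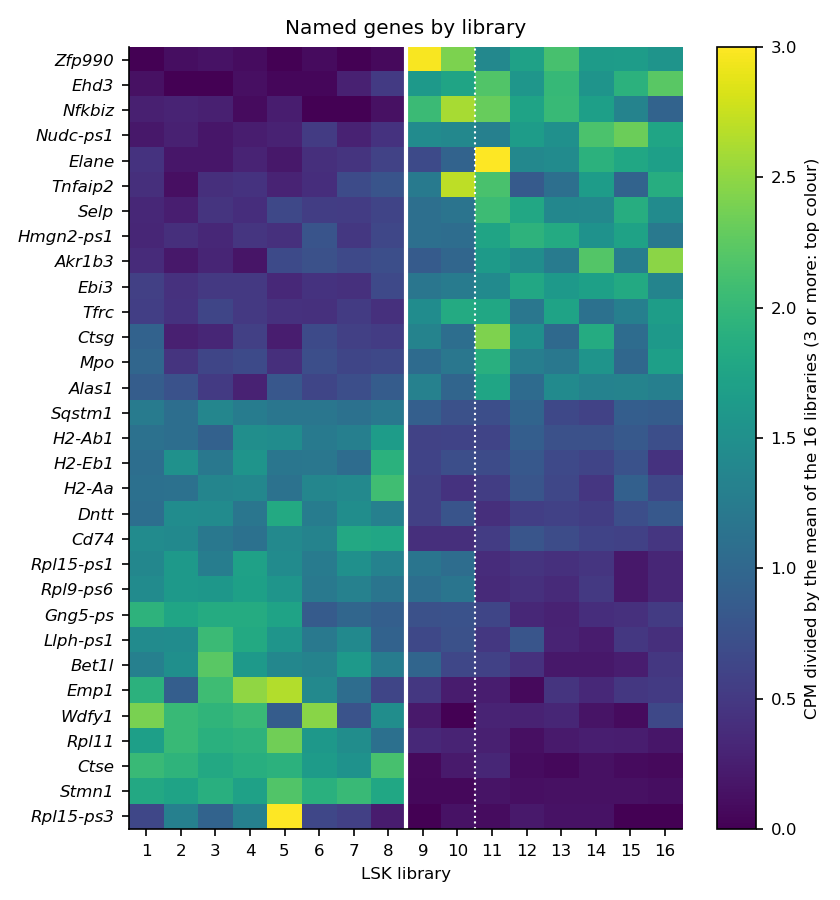
Level of the 31 named genes in each of the 16 libraries, as CPM divided by the gene's mean over the libraries, with colour capped at 3. Each gene lies apart between libraries 1 to 8 and libraries 9 to 16, and Elane, Rpl9-ps6 and Rpl15-ps1 are among those that also differ between libraries 9 and 10 and libraries 11 to 16.

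A share of the genes that lay apart have near-identical copies in the genome, between which 3′ tags can be split; the sources used here do not give how such tags were assigned. A copy was called at 95% identity or more over at least 100 of the last 500 transcript bases. Of 8658 tested genes with a transcript sequence, 1400 (16.2%) had one, and of 119 genes lying apart 58 (48.7%) did, 32 higher and 26 lower. When each of the 58 was summed with its copies, 53 of the sums overlapped between the sets, 5 still lay apart in the same direction (Fcf1 higher, Gm15387, Gm1821, Gm3724 and Hmgb1-ps1 lower) and 0 lay apart in the opposite one. The ratio of means crossed 1 in 21 of the 58. For 13 of the 58 a copy lay apart in the other direction. The other 61 genes, 35 higher and 26 lower, had no copy by this rule, but 6 of them (Cox7a2l, Gm14094, Gm5111, Rpl12, Rpl27a and Ybx1) were found as the copy of another tested gene. The remaining genes include Nfkbiz, Tfrc, Ehd3, Ebi3, Selp, Tnfaip2, Elane, Mpo, Ctsg, Alas1, Ctse, Wdfy1, Emp1, Bet1l, Dntt, Sqstm1 and the 4 MHC class II genes.

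Stmn1 encodes the microtubule-destabilising protein stathmin and lies on the plus strand of chromosome 4, from 134468320 to 134473843. It ran from 722.4 to 921.1 CPM (median 779.1) in libraries 1 to 8 and from 25.7 to 68.9 CPM (median 51.9) in libraries 9 to 16, 16.4 times lower on average. Its copy Gm11223 (minus strand of chromosome 4, 69925630 to 69926079, 99.75% identical over 404 bases) ran the other way, from 479.3 to 731.1 CPM and from 1142 to 1333 CPM. Added together they gave 1389 ± 84.2 and 1272 ± 60.7 CPM (SD, n = 8 each), with ranges of 1289 to 1529 and 1171 to 1387 CPM that overlap.

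Nudc, a dynein-associated protein of dividing cells, and its copy Nudc-ps1 also lay apart in opposite directions. Nudc ran from 156.1 to 198.3 CPM in libraries 1 to 8 and from 61.6 to 113.4 CPM in libraries 9 to 16, and Nudc-ps1 from 15.5 to 45.6 CPM and from 114.8 to 204.2 CPM. Their sums overlapped, at 208.1 ± 22.9 and 228.8 ± 26.6 CPM. For Rpl11, a ribosomal protein of the large subunit, the level ran from 254.9 to 536.8 CPM and from 27.2 to 78.6 CPM, while that of its copy Gm10036 ran from 622.5 to 1058 CPM and from 1923 to 2480 CPM. With all 7 copies the Rpl11 sum was 2514 ± 213.1 and 2588 ± 280.2 CPM. The other named genes with copies were Zfp990, Hmgn2-ps1, Akr1b3, Rpl15-ps3, Llph-ps1, Gng5-ps, Rpl9-ps6 and Rpl15-ps1, and none of their levels is read here as that of the gene alone. Zfp990, a zinc finger gene with 4 copies, ran from 0 to 2.58 CPM and from 24.2 to 51.4 CPM, and its sum with the copies from 12.5 to 76.1 CPM and from 40.8 to 81.6 CPM, which overlap. That overlap rests on library 4 at 76.1 CPM, the rest of libraries 1 to 8 lying at 18.25 CPM or less. The ratio of the summed means was 2.40. The Rpl9-ps6 sum was 0.494 times the first set's mean in the second, with libraries 9 and 10 (2086 and 2214 CPM) inside the first set's range of 2051 to 3072 CPM.

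**Figure D4:**
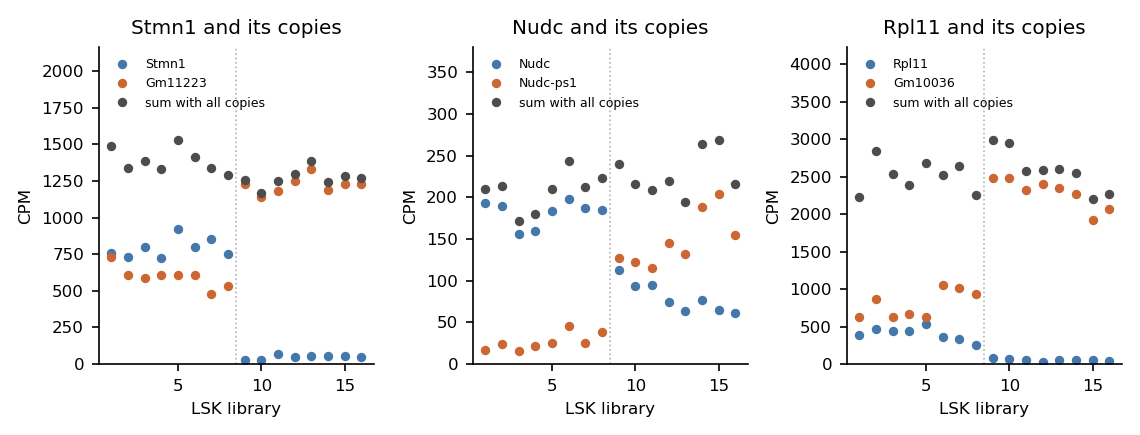
Level in CPM per library of Stmn1, Nudc and Rpl11, of a near-identical copy of each (Gm11223, Nudc-ps1, Gm10036), and of the gene summed with all its copies, for libraries 1 to 8 and 9 to 16. Gene and copy lie apart in opposite directions, and the sums overlap.

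The genes lying apart were not spread evenly over the chromosomes, which was looked at after the values were seen. On chromosome 4, 18 of 564 tested genes lay apart (3.19%), on chromosome 1 14 of 554 (2.53%) and on chromosome 17 11 of 458 (2.4%), beside 1.39% over all autosomes. Within 20 Mb on each side of Zc3h12a (minus strand of chromosome 4, 125118423 to 125127840 on mm10) they were 12 of 265 (4.53%), 4 higher and 8 lower, Stmn1, Nudc and Rpl11 among them. Of the 12, Stmn1, Nudc, Rpl11, Gm12943, Llph-ps1 and Ppih have near-identical copies, and their sums with the copies overlapped between the sets. Around Zc3h12c on chromosome 9 they were 2 of 180 (1.11%). Around Ptprc, the gene of the CD45.1 and CD45.2 alleles on chromosome 1, they were 2 of 117 (1.71%), namely Ctse and Rnpep. Neighbouring genes are not independent, and no test was made of these shares.

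Within libraries, where both sums of a pair come from the same plate, it could be tested which cells carried the 2 mRNAs. Cells were placed inside a gate with at least 2 UMIs of its genes, without thinning. The test was an exact two-sided sign-flip permutation test over 8 libraries, with Benjamini-Hochberg adjustment over 12 tests. Its p-values measure only the spread between libraries, since the number of mice is not given and libraries may share them. Of the 12 tests 2 passed an adjusted p of 0.05.

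In libraries 9 to 16 Nfkbiz was higher in cells inside the lymphoid gate, at 51.9 ± 16.6 CPM against 30.2 ± 11.2 CPM outside it (SD, n = 8 each). The difference was 21.7 ± 17 CPM and was positive in 8 of 8 libraries (exact sign-flip permutation p = 0.0078 and adjusted p = 0.047, the first being the lowest value possible with 8 libraries). In library 10 the values were as close as 52.1 and 52.0 CPM. In the granule gate the values were 38.3 and 35 CPM (higher inside in 5 of 8, adjusted permutation p = 0.84), in the stem gate 46.1 and 35.6 CPM (6 of 8, 0.44) and in the megakaryocyte-erythroid gate 21.0 and 40.2 CPM (2 of 8, 0.23). Cells inside the lymphoid gate were deeper, with a median of 2325 UMIs against 1371 outside, and the part of depth was not tested beyond the alternatives given with the processing.

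Tfrc in libraries 9 to 16 was higher in cells inside the megakaryocyte-erythroid gate, at 195.2 ± 77.8 CPM against 73.0 ± 15.9 CPM outside (SD, n = 8 each). Erythroid precursors are known for high transferrin receptor levels. The difference was 122.2 ± 82.0 CPM, positive in 8 of 8 libraries (exact sign-flip permutation p = 0.0078, adjusted p = 0.047). In libraries 1 to 8 the same gate gave 42.3 ± 39.2 and 30.2 ± 6.60 CPM, higher inside in 4 of 8 (adjusted permutation p = 0.55), from 22 UMIs in 184 cells, and whether the gate's effect differs between the sets was not tested. Both calls are at the edge of the design: over 7 libraries the test cannot go below 0.016 (0.094 after adjustment where 2 of the 12 reach it), and neither call held in any of 10 alternatives, with adjusted p of 0.070 to 0.23 for Nfkbiz and 0.063 to 0.094 for Tfrc.

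**Figure D5:**
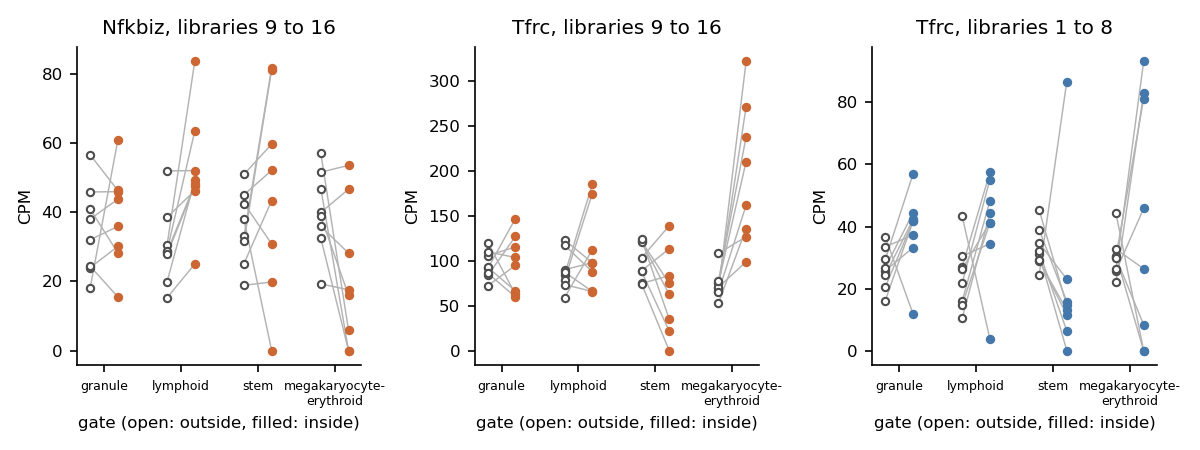
Level in CPM of Nfkbiz in libraries 9 to 16, Tfrc in libraries 9 to 16 and Tfrc in libraries 1 to 8, for cells inside (filled) and outside (open) each of 4 gates, with 1 point per library. Nfkbiz inside the lymphoid gate and Tfrc inside the megakaryocyte-erythroid gate are higher than outside in 8 of 8 of libraries 9 to 16.

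The sets were also compared inside and outside each gate. Tfrc lay apart on both sides of 3 of the 4 gates and Nfkbiz on both sides of 2. Outside the granule gate Nfkbiz was at 3.33 ± 3.52 CPM in libraries 1 to 8 and 35 ± 12.8 CPM in libraries 9 to 16, without overlap, and outside the megakaryocyte-erythroid gate Tfrc was at 30.2 ± 6.60 and 73.0 ± 15.9 CPM, also without overlap. Nfkbiz overlapped only inside the stem and megakaryocyte-erythroid gates, where sums were thin, and Tfrc only inside the stem gate. Stmn1 on its own was lower inside and outside all 4 gates. Ebi3 lay apart outside every gate and inside the granule and lymphoid gates, at 36.6 ± 8.74 and 148.0 ± 36.7 CPM inside the lymphoid one. Selp lay apart outside every gate and, of the inside sums, in the granule gate alone.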

How the data were processed

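The authors deposited UMI counts per gene and well, not normalized, for 16 MARS-seq libraries of 384 wells, with a table of wells; library 1 is not in that table. The tool bcl2fastq 2.15.0.4 and the build mm10 are listed in the submitters' processing notes. No aligner, counter, strand setting or treatment of shared tags is given in the sources used.

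Wells not listed as empty were kept with at least 500 UMIs (spike-ins left out) and under 20% mitochondrial UMIs. No doublets were called, since the table lists no well with more than 1 cell. Kept cells were summed per library and scaled to a library total of 1000000 (CPM). Of 52542 gene entries, 44121 were autosomal, 4177 on X or Y were left out, and 4134 without a found chromosome (1.24% of UMIs) were not described. A gene lay apart when the ranges of the 2 sets did not overlap.

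Named genes were Nfkbiz and Tfrc, then, among genes with a symbol that also lay apart within SB341, the 12 with the largest and the 12 with the smallest ratio, and the members of each list that lay apart (at most 6). The sets, members and 23 lists (433 genes) were chosen with earlier results of these data known. Alternatives were other cell minimums, no mitochondrial limit, TMM (edgeR 4.0.16) and DESeq2 1.42.0 scaling, other level minimums, thinned cells, SB341 alone, cells without granule genes, other gates and leaving out each library; sums with copies, the comparison of batches inside libraries 9 to 16 and the windows around genes were added after the data were seen. The calling step was checked on simulated data. Python 3.11.15, numpy 2.4.6, scipy 1.17.1, pandas 2.3.3, R 4.3.3 and blastn 2.17.0 were used.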

Additional observations from a re-analysis of the deposited data

Results flagged for a closer look

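Of 116 checks for a library far from the other 7 of its set, 7 found one, where chance gives about 1 in 20. Elane stood at 219.4 CPM in library 11, against at most 126.0 CPM in the rest of libraries 9 to 16. Rpl15-ps3 stood at 117.5 CPM in library 5, Bet1l at 247.6 CPM in library 3 and H2-Aa at 223.1 CPM in library 8, each above the rest of libraries 1 to 8. The Rpl15-ps3 ratio of means was 0.0483 with library 5 and 0.114 without it. Summed antigen-presenting and dendritic cell genes were also highest in library 8, at 1020 CPM. Summed erythroid and platelet genes reached 384.8 CPM in library 7, and summed endothelial and stromal genes 170.0 CPM in library 2. Outside the main measurement, 12 UMIs of spike-in RNA were counted, all in library 2.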

How the results depend on the processing

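Without regard to copies, the ratio of means of each of the 31 named genes kept its direction under every setting run (24, or 23 for Mpo, Elane and Ctsg). For genes lying apart, leaving out a library or taking SB341 alone cannot turn the direction. Those settings therefore show nothing about it. Whether each gene still lay apart under the other settings was not counted. The Nfkbiz ratio lay between 9.99 and 16.7 and the Tfrc ratio between 2.23 and 3.58. The number of genes lying apart (68 higher, 53 lower) depended more on the setting. It was 28 and 31 with cells thinned to 500 UMIs (Nfkbiz 16.7, Tfrc 2.23) and 43 and 31 at a mean of at least 50 CPM. Within SB341, where 2 libraries set the second range, it was 473 and 351 (Nfkbiz 15.9). In cells with no UMI of any granule gate gene it was 29 and 29. Such cells numbered 157 to 222 per library in the first set and 83 to 161 in the second. All kept cells numbered 312 to 335 and 295 to 345. The part of the smaller cell number in this drop was not tested. Leaving out a library gave 69 to 117 higher and 56 to 102 lower genes, the most without library 9 (117 and 91) and library 10 (109 and 102). A range over fewer libraries is never wider.

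Summed with near-identical copies, the ratio crossed 1 in 21 of 58 genes, among the named ones for Hmgn2-ps1 (0.656), Akr1b3 (0.916), Rpl15-ps3 (2.13), Rpl11 (1.03), Gng5-ps (1.00) and Rpl15-ps1 (1.46). The ratio of granule gate shares was 1.94 at 1 or more UMIs and 1.73 without thinning, against 3.09, and that of lymphoid gate shares 0.697 and 0.690, against 0.562. The cause was not tested.

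The Nfkbiz difference at the lymphoid gate was 20.4 CPM at 1 or more UMIs and 18.4 CPM in cells of at least 1000 UMIs, and 17.3 to 24.8 CPM without each library; the Tfrc difference at the megakaryocyte-erythroid gate was 74.2, 125.2 and 103.3 to 137.0 CPM. None of these passed; with a library left out, 2 tests at the smallest p give an adjusted p of 0.094. Tfrc in libraries 1 to 8 differed by 9.82 to 17.3 CPM at the granule and 14.6 to 25.1 CPM at the lymphoid gate, and passed without library 6 alone. Libraries of the 2 sets could not be paired with each other, because the labels give 1 group and no replicate number shared between the sets. UMIs limit the low genes: Nfkbiz rests on 17 and 189.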
